A study of Homo sapiens with 12 samples.

Results

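RNA of T24 cells, an established human bladder cancer line, was compared between 9 knockdown libraries and 3 control libraries, and the genes described are those whose 9 knockdown values all lay above, or all below, the 3 control values. All 12 libraries of the series entered. The cells had been transfected with Lipofectamine 3000 and an siRNA: siFDPS against farnesyl diphosphate synthase (3 libraries), siSQLE against squalene epoxidase (3 libraries), siYY1 against the transcription factor YY1 (3 libraries), or the control siRNA siNC (3 libraries). For the RNA sequencing, the study's methods name a single FDPS siRNA. The labels do not say how many siRNA sequences were used per target and list no untransfected or mock-transfected cells, and every group shares the transfection reagent and a loaded siRNA. A difference between siNC and all knockdowns can therefore lie in the knockdowns or in siNC, and the effect of the control siRNA, of transfection and of a response shared by the knockdowns cannot be told apart. The series' design text states that the knockdowns were done in independent experiments, and the p-values measure the spread between these libraries.

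An siRNA acts through the RNA interference machinery: it is loaded into an Argonaute protein, which then cleaves transcripts that pair with its guide strand. A control siRNA is loaded in the same way, and any siRNA can also lower transcripts that pair with it only in part. Double-stranded RNA in the cytoplasm or in endosomes can be bound by sensors such as the RIG-I-like receptors, the OAS proteins and TLR3. Of these, the RIG-I-like receptors and TLR3 switch on interferon and the interferon-stimulated genes. For these reasons siRNA experiments are usually read against a control siRNA, and the choice of that control sets the zero of every comparison.

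Counts summed for each gene were scaled to CPM, counts relative to the library total after edgeR's TMM scaling. Of 58735 genes in the table, 20364 passed the filter on low counts and were tested, and 18305 had no count in any library. Total counts lay between 48679901 and 62168745, and the number of genes with a count between 28052 and 29610. Each targeted gene was lowest in its own knockdown. FDPS had 83.2, 90.6 and 87.1 CPM in siNC libraries 1 to 3, 25.0, 24.6 and 24.9 CPM in siFDPS libraries, 159, 169 and 161 CPM in siSQLE libraries and 133, 137 and 135 CPM in siYY1 libraries. SQLE ranged from 30.2 to 33.2 CPM in siSQLE libraries against 103 to 126 CPM in siNC libraries, and YY1 from 23.6 to 24.7 CPM in siYY1 libraries against 140 to 144 CPM in siNC libraries. The epithelial keratins KRT7, KRT8 and KRT18 were at 303 CPM or more in every library, while the basal keratin KRT5 and the uroplakins UPK1B and UPK3A had at most 5 counts. Other epithelial markers were low, with at most 14 counts in CDH1 and 0.842 to 4.62 CPM in EPCAM. Of the markers of a mesenchymal state, VIM lay at 1220 to 2150 CPM and FN1 at 485 to 2740 CPM. CD3E, a T cell marker, had no count, and the summed level of 5 leukocyte markers was 27.1 to 33.8 CPM in siFDPS libraries against 4.53 to 10.1 CPM elsewhere, nearly all of it CD68, a protein of lysosomes. The fibroblast markers summed to at most 13.4 CPM. Their part in the results was not tested. YY1, AGO2, XPO5, IFIT2, TM7SF2, CYP51A1, ASNS, FEN1, CENPA, LDHA, EGLN3 and ASAP1 overlap another gene on their strand, so their counts are less certain.

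For 1584 genes all 9 knockdown values lay above the 3 siNC values, which is 7.78% of the genes tested, and for 1677 genes, or 8.24%, all 9 lay below. The 3 siNC libraries therefore stood apart from the 9 others on 16% of genes. The same count gave 25.5% for the 3 siFDPS libraries against the other 9, 13.2% for siSQLE and 26.1% for siYY1, so each group had its own set of genes on one side of all others. Genes higher in the knockdowns had a median log2 fold change of 0.73, the mean of the 3 knockdowns minus siNC, with 436 of 1584 changed at least 2-fold and 45 at least 4-fold. Lower genes moved further, with a median of -1.03, 864 of 1677 changed at least 2-fold and 275 at least 4-fold. Nearest values of the 2 sides were at least 1.5-fold apart for 220 higher and 312 lower genes. At the edge of the rule, the highest siNC value and the lowest knockdown value of EXO5 were both 10.18 CPM to the digits given, and TRIM11 touched at 31 CPM and was left out. Among lower genes RAB20 met at 21.13 CPM and was kept, and RPS9, with a highest knockdown value of 587 CPM and a lowest siNC value of 586.6 CPM, was left out.

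The share of no-overlap genes depended on the level of the gene. Higher genes made up 1.01% of the lowest quintile of tested genes, which had a mean of 3.42 to 24.1 counts, and 15.7% of the highest quintile, with 3330 counts or more. Lower genes made up 5.62% of the lowest quintile, 11.1% of the middle quintile and 7.05% of the highest. The median of the mean count was 2500 for higher genes, 421 for lower genes and 492 for all genes tested. Protein-coding genes were 87.0% of higher, 84.8% of lower and 69.9% of all tested genes. Long intergenic RNAs were higher in 4.46% and lower in 5.84% of 1165 tested, and processed pseudogenes in 2.84% and 1.92% of 1301. Of the 37 mitochondrially encoded genes tested, 0 were higher and 5 lower.

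**Figure D1:**
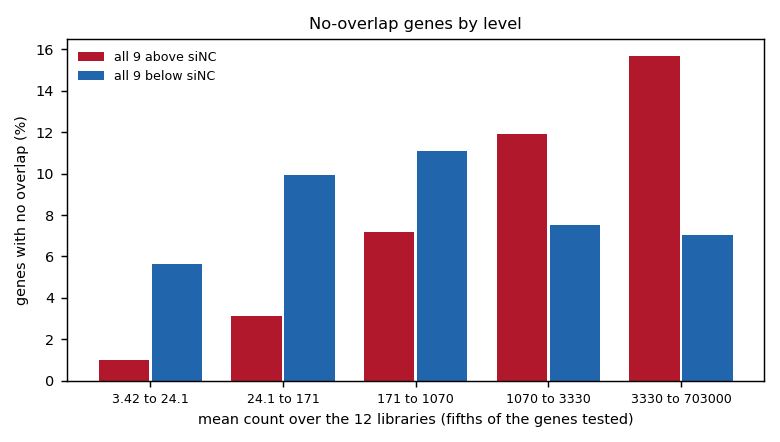
Share of tested genes with no overlap (y axis, percent) in quintiles of the mean count over the 12 libraries (x axis), for genes whose 9 knockdown values lay above (red) or below (blue) all 3 siNC values. The share of higher genes rises from 1.01% to 15.7%, while that of lower genes peaks at 11.1% in the middle quintile.

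With edgeR's quasi-likelihood test of the mean of the 3 knockdowns against siNC, 4227 genes (20.8% of those tested) were higher and 4643 (22.8%) lower at an adjusted p under 0.05. Higher genes were 47.7% of these calls, and 36.8% with upper-quartile normalization, which called 3319 higher and 5689 lower. The TMM calls include 1577 of the 1584 higher and 1643 of the 1677 lower no-overlap genes, a count that uses the contrast that chose the genes and tests nothing further. With the 9 knockdown libraries fitted as a single group, the test called 1004 higher and 943 lower genes, since differences between the knockdowns then count as error. Set side by side, the separate comparisons with siNC called 24.1% of tested genes higher and 25.3% lower for siFDPS, 17.5% and 16.6% for siSQLE, and 25.2% and 24.6% for siYY1. The 3 comparisons share the siNC libraries.

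Whether the 3 knockdowns moved a gene by the same amount was tested in the 9 knockdown libraries alone, without siNC. Of 19775 genes tested there, 13411 (67.8%) differed among the knockdowns by edgeR's F test at an adjusted p under 0.05. The share was 76.7% for the higher genes (1215 of 1584) and 68.9% for the lower genes (1083 of the 1571 that passed the filter in those libraries). The share is not a measure of size: the median range of the 3 log2 fold changes was 0.53 for higher, 0.81 for lower and 0.87 for all tested genes. Higher genes also had more counts, a median of 2500 against 492 for all tested genes, and the part of this in their share was not tested. The medians for the higher genes were 0.71 in siFDPS, 0.63 in siSQLE and 0.81 in siYY1 on the log2 scale, and those for the lower genes -1.06, -0.78 and -1.14. For 901 of the 1677 lower genes the change was smallest in siSQLE.

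**Figure D2:**
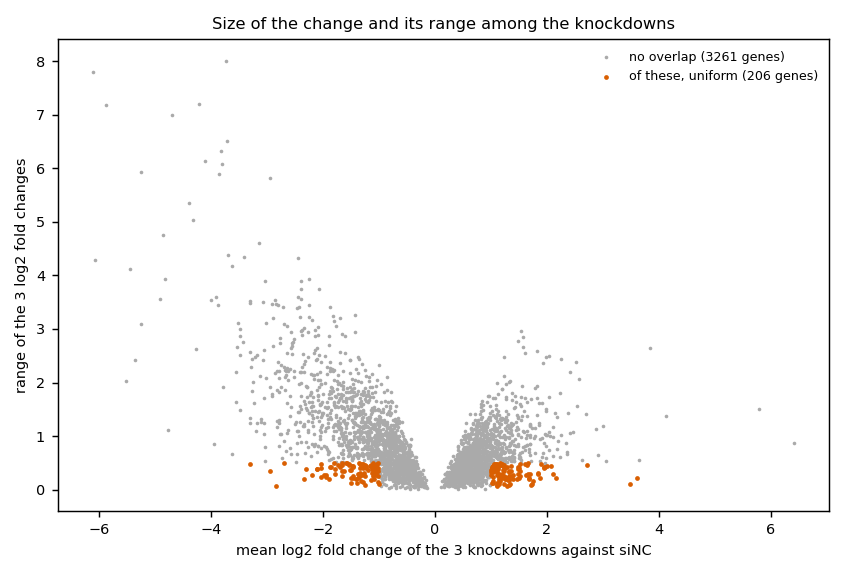
Mean log2 fold change of the 3 knockdowns against siNC (x axis) and the range of the 3 log2 fold changes (y axis) for the 3261 genes with no overlap, 1 point per gene. The 206 uniform genes (orange) changed at least 2-fold with a range of at most 0.5, and lower genes spread to larger ranges than higher genes.

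How far replicates agree was described by choosing genes with some libraries left out. Genes were chosen on 8 libraries, leaving out those of one replicate number, and then looked up in the 4 left out. Of the genes chosen as higher, 71.3% to 82.4% had all 3 held-out knockdown values above the held-out siNC value, against 21.9% to 23.9% of all tested genes. Of those chosen as lower, 75.0% to 81.8% lay below, against 23.2% to 23.8% of all tested genes. The filter and the scaling used all 12 libraries, and the libraries left out are replicates of the same 4 groups. These shares therefore describe agreement between replicates and are no separate support for a shared response.

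The widest gaps on the higher side were in ESM1, TPM4, KRT34, PODXL and F3. They are described by the values that chose them, with no test. ESM1 (chromosome 5, 54977864 to 55022671, minus strand, GRCh38), which encodes the secreted proteoglycan endocan, had 0.913, 1.16 and 1.43 CPM in siNC libraries 1 to 3 and 9.88 to 18.8 CPM, median 15.0, in the knockdowns. TPM4 (chromosome 19, 16067021 to 16103005, plus strand), which encodes a tropomyosin that winds along actin filaments, had 96.6, 60.2 and 96.4 CPM in siNC and 537 to 954 CPM, median 691, in the knockdowns. Its lowest knockdown value was 5.55 times its highest siNC value, taken on CPM + 0.1, and the 3 log2 fold changes were 3.38 in siFDPS, 2.94 in siSQLE and 2.85 in siYY1. The reads of TPM4 were divided over 23 of its 24 annotated transcripts, and the largest of these held between 0% and 95.5% of the gene's counts, so only the sum was used.

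PODXL, a sialomucin of the cell surface, had 41.6, 44.4 and 41.2 CPM in siNC and 174 to 309 CPM, median 197, in the knockdowns. F3, which encodes tissue factor, the starter of the extrinsic clotting cascade, had 67.9, 69.3 and 74.9 CPM in siNC and 289 to 366 CPM, median 306, in the knockdowns. In both genes the siNC libraries lay within a few CPM of each other and far below every knockdown library. The hair keratin gene KRT34 was near the limit of detection, with 5, 12 and 0 counts in siNC libraries and 56 to 83 counts in the knockdowns.

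The next genes by gap were B4GALT1, KIF1C, SETD7, NUDCD3, AOX1, APBA2 and BICD2. B4GALT1 (chromosome 9, 33104082 to 33167356, minus strand), a galactosyltransferase of the Golgi, had 47.4, 49.2 and 48.7 CPM in siNC and 175 to 251 CPM, median 187, in the knockdowns. KIF1C (chromosome 17, 4997948 to 5028401, plus strand), a kinesin motor, had 118, 118 and 113 CPM in siNC and 390 to 546 CPM, median 443, in the knockdowns. A single annotated transcript held at least 99.8% of the counts of B4GALT1 and at least 99.0% of those of KIF1C in each library, so their difference does not depend on how reads were divided. BICD2, which links cargo to dynein, had 26.5, 27.2 and 25.6 CPM in siNC and 81.2 to 167 CPM in the knockdowns, and NUDCD3, a co-chaperone of the dynein intermediate chain, 34.1, 34.2 and 32.5 CPM in siNC and 106 to 151 CPM in the knockdowns. The lysine methyltransferase gene SETD7 went from 22.6 to 26.8 CPM in siNC to 85.1 to 161 CPM, the aldehyde oxidase gene AOX1 from 8.40 to 10.9 CPM to 33.5 to 98.2 CPM, and APBA2, an adaptor that binds the amyloid precursor protein, from 4.88 to 5.0 CPM to 15.2 to 24.3 CPM. The log2 fold changes of AOX1 were 1.88 in siFDPS, 2.94 in siSQLE and 3.30 in siYY1, the widest range among these 12 genes.

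The widest gaps on the lower side were in KCNJ16, SLC47A2, LGR5, ISM2 and ABCA12, and these genes too are described with no test. SLC47A2, which encodes an exporter of organic cations, had 24.5, 35.2 and 33.4 CPM in siNC and 0.0973 to 2.71 CPM, median 1.22, in the knockdowns. KCNK3, a potassium leak channel, had 27.7, 31.2 and 25.8 CPM in siNC and 0.779 to 5.81 CPM, median 3.19, in the knockdowns. The inward rectifier channel gene KCNJ16 had 268, 256 and 302 counts in siNC libraries and 17 counts or fewer in each knockdown library, with 0 counts in 1 siFDPS and 1 siYY1 library. ABCA12, a lipid transporter of the epidermis, had 182, 264 and 219 counts in siNC and 31 or fewer in each knockdown library.

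LGR5, the R-spondin receptor that marks intestinal stem cells, had 3.53, 3.82 and 4.20 CPM in siNC and 0.135 to 0.350 CPM in the knockdowns. ANGPTL2, a secreted angiopoietin-like protein, had 17.1, 19.8 and 16.9 CPM in siNC and 1.65 to 3.24 CPM in the knockdowns. Both genes were low in all 3 knockdowns, and neither passed the test for a difference among them (edgeR adjusted p = 0.089 and 0.49). SESN3, a sestrin that restrains mTORC1, had 14.9 to 18.0 CPM in siNC and 0.578 to 3.57 CPM in the knockdowns, with the lowest values in siYY1. ISM2, ENTPD8, PROM2, NPTXR and the integrin gene ITGB3 complete the 12 genes of this kind. The first 4 had highest knockdown values of 0.399, 1.41, 2.42 and 5.22 CPM, below lowest siNC values of 2.99, 6.5, 10.9 and 21.7 CPM.

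**Figure D3:**
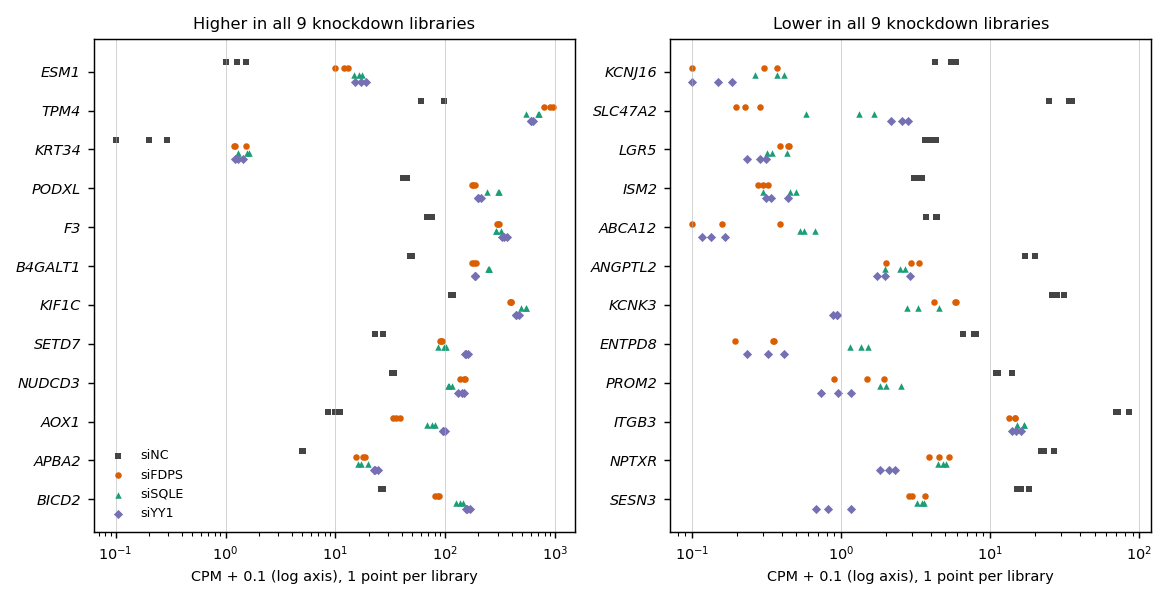
CPM + 0.1 on a log axis (x) in each of the 12 libraries for the 12 higher (left) and 12 lower (right) genes with the widest gap between knockdown and siNC values (y), 1 point per library; a count of 0 is drawn at 0.1. All 9 knockdown points of a gene lie on one side of its 3 siNC squares, for example 537 to 954 CPM against 60.2 to 96.6 CPM for TPM4.

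Some genes stood at nearly the same distance from siNC in all 3 knockdowns. Uniform genes were defined as no-overlap genes with a mean change of at least 2-fold and a range of the 3 log2 fold changes of at most 0.5. There were 113 higher (0.555% of the genes tested) and 93 lower (0.457%). DENND5A, a regulator of RAB GTPases in vesicle transport, had 53, 62.8 and 54.5 CPM in siNC and 167 to 202 CPM in the knockdowns, with log2 fold changes of 1.76, 1.72 and 1.68 in siFDPS, siSQLE and siYY1. VOPP1 had 55.6, 55.3 and 54.4 CPM in siNC and 155 to 213 CPM in the knockdowns, with log2 fold changes of 1.68, 1.73 and 1.79. In both, the range among the knockdowns was small beside the change itself (0.08 in DENND5A and 0.11 in VOPP1).

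RPL26L1, a close relative of a ribosomal protein gene, had 14.8, 12.9 and 12.6 CPM in siNC and 41.6 to 55.4 CPM in the knockdowns. FOXP4, a forkhead transcription factor, had 5.56, 6.40 and 3.26 CPM in siNC and 15.4 to 24.7 CPM in the knockdowns. PLEKHB2 and MRPL49 were uniform in their group means only: the knockdown libraries ranged from 139 to 403 CPM in PLEKHB2 and from 37.6 to 171 CPM in MRPL49, wider than the distance of some of them from siNC.

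On the lower side, SMPDL3B, a membrane phosphodiesterase, had 6.83, 7.79 and 6.83 CPM in siNC and 1.25 to 2.16 CPM in the knockdowns. SLC12A8 was uniform in its fold changes (-3.45, -2.99 and -3.47), although its siNC libraries themselves lay at 7.05, 18.6 and 10.2 CPM. SPATA6L and PARP15 were below 1.21 CPM or at it in each knockdown library and above 1.90 CPM in each siNC library.

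ITGB3 (chromosome 17, 47253846 to 47311816, plus strand), which encodes integrin β3, the partner of integrin αv in the vitronectin receptor, was lower in all 3 knockdowns, which did not pass the test for a difference among them (edgeR adjusted p = 0.2). It had 71.7, 85.6 and 69.7 CPM in siNC and 13.2 to 16.8 CPM, median 14.8, in the knockdowns. The log2 fold changes were -2.42 in siFDPS, -2.23 in siSQLE and -2.35 in siYY1, with a mean of -2.33. ITGB3 is one of the 12 lower genes with the widest gap, so these values describe it and have no test. ITGAV, the αv chain, was also below siNC in all 9 libraries, but its log2 fold changes were -1.15, -0.17 and -1.83. ITGB1, which encodes integrin β1, was not a no-overlap gene, with 1010 to 1050 CPM in siNC and 872 to 2080 CPM in the knockdowns, above siNC in siFDPS and below it in siYY1. Of 22 integrin subunit genes tested, 4 rose and 10 fell by edgeR's test, which is 18.2% and 45.5% against 20.8% and 22.8% of all genes tested. The median log2 fold change was -0.63 against -0.017 for all genes tested, with -1.24 in siFDPS, 0.16 in siSQLE and -0.39 in siYY1, so siSQLE lay on the other side of 0.

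The small GTPase gene RHOB (chromosome 2, 20447074 to 20449445, plus strand) regulates actin and endosome traffic. It had 104, 92.8 and 96.4 CPM in siNC and 30.6 to 54.2 CPM, median 42.6, in the knockdowns, with no overlap. The mean log2 fold change was -1.28 (SE 0.0650, edgeR adjusted p = 7.3e-08), made up of -1.19 in siFDPS, -1.02 in siSQLE and -1.64 in siYY1. RAC1, the GTPase of lamellipodia, moved the other way, from 163 to 182 CPM in siNC to 404 to 495 CPM in the knockdowns, with a range among the 3 log2 fold changes of 0.10.

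The genes of the RNA interference machinery were read first among the lists, because every library received an siRNA. In each list, genes were named mostly by fold change among those called, so their p-values are those of the calls and no further test. DROSHA, the nuclear RNase that starts microRNA processing, had 39.1, 38.8 and 38.2 CPM in siNC and 75.4 to 114 CPM, median 90.3, in the knockdowns. Its mean log2 fold change was 1.25 (SE 0.0436, edgeR adjusted p = 8.5e-09). DICER1, the cytoplasmic RNase that makes small RNAs, went the other way, from 145, 150 and 156 CPM in siNC to 61.0 to 123 CPM, median 64.9, a mean log2 fold change of -1.0 (SE 0.0759, edgeR adjusted p = 1.5e-06). PRKRA, a partner of DICER1, was also below siNC in all 9 libraries, at 20.0 to 34.8 CPM against 43.5 to 45.5 CPM. Of 13 genes tested, 4 rose (AGO2, TNRC6B, XPO5 and DROSHA) and 6 fell (AGO3, AGO4, DICER1, TARBP2, PRKRA and TNRC6A). These are 30.8% and 46.2%, against 20.8% and 22.8% of all genes tested. The Argonaute gene AGO2, which encodes the slicing enzyme and shares its strand with an overlapping gene, had log2 fold changes of 0.91 in siFDPS, -0.44 in siSQLE and 0.66 in siYY1, so its direction differed between knockdowns.

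Sensors of double-stranded RNA were mostly lower in siFDPS and siYY1 than in siNC. Of 12 genes tested, 9 fell by the mean of the 3 knockdowns (75%, against 22.8% of all genes tested) and the other 3 did not pass. In all 9 libraries 3 were below siNC (25.0%, against 8.24% of all genes tested). The median log2 fold change was -0.79 in siFDPS, -0.03 in siSQLE and -0.77 in siYY1. OASL had 50.5, 50.8 and 48.3 CPM in siNC and 4.92 to 36.1 CPM, median 14.9, in the knockdowns. Its mean log2 fold change was -1.90 (SE 0.0817, edgeR adjusted p = 2.5e-08), from -3.28 in siFDPS through -1.83 in siYY1 to -0.58 in siSQLE. OAS2, which makes the second messenger that activates RNase L, had 41.3 to 43.4 CPM in siNC and 13 to 38.2 CPM in the knockdowns. TLR3, the endosomal receptor, had 17.1, 18.3 and 21.2 CPM in siNC and 9.27 to 13.7 CPM in the knockdowns. IFIH1, which encodes the sensor MDA5, fell on average (log2 fold change -0.61, standard error 0.0781, edgeR adjusted p = 7.9e-05), yet its siSQLE change was -0.06 and its values overlapped with siNC.

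Most interferon-stimulated genes were also lower. Of 34 tested, 27 fell (79.4%, against 22.8% of all genes tested), 2 rose (USP18 and BST2), and 10 were below siNC in all 9 libraries (29.4%, against 8.24%), with a median log2 fold change of -0.87. IFIT2, which binds RNA and shares its strand with an overlapping gene, had 183, 182 and 212 CPM in siNC and 20.9 to 83.2 CPM, median 38.9, in the knockdowns. Its mean log2 fold change was -2.25 (SE 0.0747, edgeR adjusted p = 6.7e-09). RSAD2, the antiviral enzyme viperin, had 3.62 to 4.05 CPM in siNC and 0.272 to 3.25 CPM in the knockdowns, and IFI44L 15.3 to 15.4 CPM in siNC and 1.49 to 9.01 CPM in the knockdowns. XAF1 had the largest mean change of the list, -2.60, but overlapped, with 2.32, 5.59 and 6.56 CPM in siNC.

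The size of this difference was not shared. The median of the list was -1.04 in siFDPS, -0.23 in siSQLE and -1.41 in siYY1, and 32 of the 34 genes differed among the knockdowns by edgeR's test on the 9 knockdown libraries, where 67.8% of all genes did. IFNB1 and IFNL1, the interferon genes of the list, were not among the genes tested. Whether siNC cells carried a raised interferon response or the knockdowns lowered it cannot be told apart without untransfected cells.

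**Figure D4:**
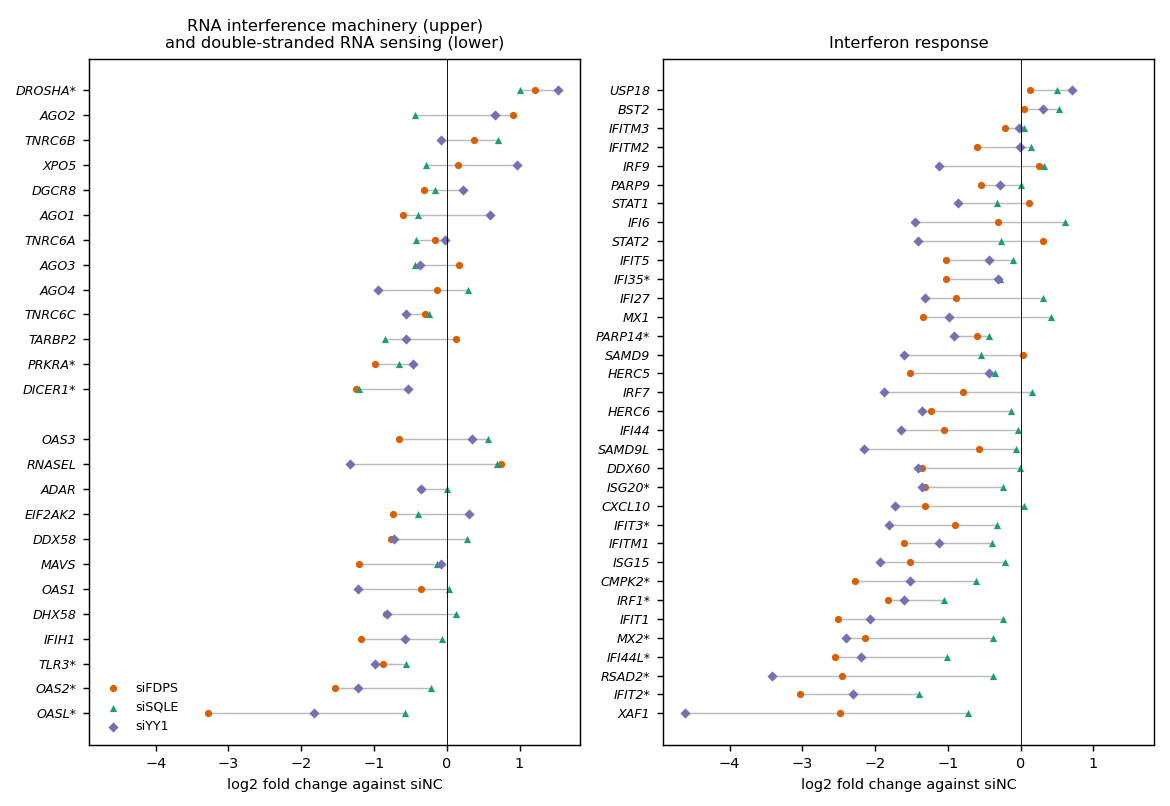
Log2 fold change against siNC (x axis) in siFDPS (orange circles), siSQLE (green triangles) and siYY1 (purple diamonds) for each tested gene of the RNA interference machinery and double-stranded RNA sensing lists (left) and of the interferon response list (right); the grey line joins the 3 values and an asterisk marks genes with no overlap. In the sensing and interferon lists most siFDPS and siYY1 points lie below 0 and most siSQLE points lie nearer to it, as in OASL at -3.28, -1.83 and -0.58. The RNA interference list differs, with medians of -0.14 in siFDPS, -0.39 in siSQLE and -0.08 in siYY1.

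The promoters of these genes, taken from RefSeq (GRCh38.p14, 250 bases before to 50 after the start of the gene), were searched for a core of the interferon response element, GAAANNGAA on either strand. It was present in 19 of the 28 interferon list promoters found by symbol, in 4 of 7 of the double-stranded RNA sensing list, and in 6.61% of the promoters of all genes tested. Among all no-overlap genes the share was 6.12% of higher and 6.75% of lower promoters. The cores of 6 genes are shown because the values above turn on their gene group. Of the 19 interferon list genes with the core, 15 fell by edgeR's test and 1 rose, BST2. In the whole list 27 of 34 fell (79.4%, against 22.8% of all genes tested), so this count does not set genes with the core apart. Each window is read 5′ to 3′ on the strand of the gene, with the core, or its reverse complement, in capitals.
RSAD2, chr2:6865796-6865825, plus strand: agcgggaaacGAAAGCGAAgcgttgcgggg
IFI44L, chr1:78620365-78620394, plus strand: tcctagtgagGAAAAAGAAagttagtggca
IFIT1, chr10:89392498-89392527, plus strand: tagctttagtTTCACTTTCccctttcggtt
IFIT3, chr10:89327866-89327895, plus strand: ttaaattagtTTCACTTTCcagtttcctct
BST2, chr19:17405735-17405764, minus strand: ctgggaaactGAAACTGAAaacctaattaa
TLR3, chr4:186069143-186069172, plus strand: aagctttactTTCACTTTCgagagtgccgt
A match describes the letters only, and BST2, whose log2 fold change was 0.29, holds the same core as genes that fell.

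The lists of protein folding had medians above 0 in all 3 knockdowns. Of 17 genes of the unfolded protein response, which refits the endoplasmic reticulum when misfolded proteins build up, 10 rose, 2 fell (DNAJB9 and ERN1) and 8 were above siNC in all 9 libraries. The shares of genes that rose and of genes above siNC were 58.8% and 47.1%, against 20.8% and 7.78% of all genes tested. The list medians were 0.45 in siFDPS, 0.32 in siSQLE and 0.35 in siYY1, the closest of the 20 lists. Its members were less alike, as 14 of the 17 differed among the knockdowns by edgeR's test, where 67.8% of all genes did. HSPA5 had log2 fold changes of 0.45 in siFDPS, 0.38 in siSQLE and -0.18 in siYY1. CALR, a chaperone of glycoproteins, had 509, 541 and 545 CPM in siNC and 684 to 990 CPM, median 776, in the knockdowns, a mean log2 fold change of 0.59 (SE 0.0447, edgeR adjusted p = 1.4e-06). PDIA6, a disulfide isomerase, had 341 to 378 CPM in siNC and 462 to 596 CPM in the knockdowns. DNAJB9, a target of the IRE1 branch, went against the list, from 25.3 to 32.8 CPM in siNC to 7.89 to 21.8 CPM in the knockdowns. The gene of IRE1 itself, ERN1, had a mean log2 fold change of -0.18, with 0.45 in siFDPS, -1.04 in siSQLE and 0.07 in siYY1.

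Among heat shock genes 9 of 12 rose (75%, against 20.8% of all genes tested) and 1, HSPB1, fell. HSP90AA1, the inducible cytosolic HSP90, had 992, 799 and 862 CPM in siNC and 1720 to 2250 CPM, median 1940, in the knockdowns. Its log2 fold changes were 1.18, 1.06 and 1.22, with a mean of 1.15 (SE 0.1, edgeR adjusted p = 3.9e-06), and reads shared with its pseudogene HSP90AA2P, which was also above siNC, could not be separated here. HSPD1 and HSPE1, a neighbouring pair that encodes the mitochondrial chaperonin, rose on average but overlapped with siNC, with log2 fold changes of 0.17 and 0.51 in siFDPS, 0.61 and -0.21 in siSQLE, and 1.90 and 1.25 in siYY1.

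ATF4 drives genes of amino acid supply when translation is curbed. ATF4 itself rose from a mean of 224 CPM in siNC to 448 in siFDPS, 280 in siSQLE and 328 in siYY1, with no overlap. PPP1R15A, a subunit of the phosphatase that restores translation, had 32.2, 37.2 and 30.6 CPM in siNC and 73.9 to 166 CPM, median 108, in the knockdowns, a mean log2 fold change of 1.71 (SE 0.0704, edgeR adjusted p = 2e-08). TRIB3, a pseudokinase of the same response, was at 18.9 to 27.2 CPM in siNC and 27.8 to 85.7 CPM in the knockdowns, so the nearest values almost touched. PHGDH, the first enzyme of serine synthesis, barely cleared siNC, at 56.6 CPM or more against 56.2 CPM or less, and ASNS, asparagine synthetase, overlapped (22.6 to 27.8 CPM in siNC and 26.3 to 53.1 CPM in the knockdowns). Of 28 genes 13 rose and 7 fell (46.4% and 25%, against 20.8% and 22.8% of all genes tested). Among those that fell were VLDLR and DDIT4, whose siSQLE changes were -0.08 and -0.06.

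Of 38 lysosomal genes 20 rose and 4 fell (52.6% and 10.5%, against 20.8% and 22.8% of all genes tested). The list medians were 0.82 in siFDPS, 0.24 in siSQLE and 0.06 in siYY1. LAMP1, the main membrane protein of lysosomes, had 203, 220 and 197 CPM in siNC and 321 to 485 CPM, median 353, in the knockdowns, a mean log2 fold change of 0.90 (SE 0.0586, edgeR adjusted p = 4.5e-07). GPNMB, whose mean change of 2.57 was the largest, was not a no-overlap gene: its log2 fold changes were 4.91, 2.51 and 0.28. The CLEAR core TCACGTGA, bound by TFEB and its relatives, was present in 5 of 25 lysosomal promoters found and in 1.79% of all. Of these 5 genes, 4 rose by edgeR's test and 1, GAA, fell, with a log2 fold change of -0.49. LAMP1 and MCOLN1 were above siNC in all 9 libraries. A window of LAMP1, which holds another core in chr13:113297226-113297255, is shown for this reason, with the core in capitals.
LAMP1, chr13:113297199-113297228, plus strand: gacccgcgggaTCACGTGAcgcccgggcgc

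Genes of cell growth and division did not move as a block. CCND1, cyclin D1, had 1460, 1600 and 1510 CPM in siNC and 364 to 690 CPM, median 427, in the knockdowns, a mean log2 fold change of -1.67 (SE 0.0402, edgeR adjusted p = 2e-09). Of 12 genes of D cyclins and inhibitors of cyclin-dependent kinases, 4 rose and 4 fell (33.3% in each direction, against 20.8% and 22.8% of all genes tested). In all 9 libraries 3 were above and 3 below siNC (25.0% in each direction, against 7.78% and 8.24%). The inhibitors did not share a direction. CDKN1A, which encodes p21, had 96.5, 82.5 and 73.3 CPM in siNC and 20.3 to 35.6 CPM, median 25.6, in the knockdowns. CDKN1C, which encodes p57, had 79.5, 70.8 and 64.5 CPM in siNC and 1.49 to 18.1 CPM, with log2 fold changes of -2.22 in siFDPS, -2.99 in siSQLE and -5.33 in siYY1. CDKN2B, the gene of p15, went from 7.68 to 8.42 CPM in siNC to 11.6 to 20.9 CPM in the knockdowns.

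Of 24 DNA replication genes 19 rose (79.2%, against 20.8% of all genes tested) and the other 5 did not pass by the mean of the 3 knockdowns, yet 3 were above siNC in all 9 libraries (ORC1, FEN1 and E2F1; 12.5%, against 7.78%). The medians of the list were -0.04 in siFDPS, 0.17 in siSQLE and 1.54 in siYY1, so the mean was carried by siYY1. E2F1 had 11.6 to 13.6 CPM in siNC, 15.7 to 65.1 CPM in the knockdowns and log2 fold changes of 0.34, 0.69 and 2.33. Of 23 mitosis genes 11 rose and 2 fell (47.8% and 8.7%, against 20.8% and 22.8% of all genes tested). Only 1 of them, the centromere gene CENPA, was above siNC in all 9 libraries (4.35%, against 7.78%). The medians were -0.54, 0.37 and 0.87.

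Of 21 targets of p53 11 fell and 5 rose (52.4% and 23.8%, against 22.8% and 20.8% of all genes tested). The list medians were -0.03 in siFDPS, -0.55 in siSQLE and -0.37 in siYY1. TP53INP1, which promotes autophagy and cell death, had 63.3, 64.3 and 66.0 CPM in siNC and 10.5 to 29.8 CPM, median 15.7, in the knockdowns, a mean log2 fold change of -1.90 (SE 0.0546, edgeR adjusted p = 3.4e-09). TP53I3 and DDB2, a damage sensor, were also below siNC in all 9 libraries, with mean changes of -0.97 and -0.86. BAX, which permeabilizes mitochondria, went the other way by 0.29 and was above siNC in all 9. XPC and AEN rose by 0.69 and 0.71 on the log2 scale.

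Genes of hypoxia and glycolysis mostly fell, 14 of 18 (77.8%, against 22.8% of all genes tested), while 2 rose (HK2 and ANKRD37). VEGFA, the growth factor of blood vessels, had 221, 263 and 248 CPM in siNC and 75.4 to 138 CPM, median 112, in the knockdowns, a mean log2 fold change of -1.23 (SE 0.0527, edgeR adjusted p = 2.4e-08). CA9 and EGLN3, classical targets of hypoxia-inducible factor, were at 3.46 to 4.80 CPM in siNC and between 0.0584 and 3.45 CPM in the knockdowns. LDHA, which makes lactate, was at a mean of 2980 CPM in siNC and 1090, 2110 and 1640 CPM in siFDPS, siSQLE and siYY1. The list medians were -0.83, -0.12 and -0.64, so siSQLE again lay nearest to siNC.

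Among the targets of NRF2, the factor of the antioxidant response, 10 of 19 fell and 4 rose (HMOX1, ME1, OSGIN1 and ABCC2). These are 52.6% and 21.1%, against 22.8% and 20.8% of all genes tested, and the list medians were -0.26 in siFDPS, -0.71 in siSQLE and -0.06 in siYY1. AKR1C3, a ketosteroid reductase, had 38.6 to 44.1 CPM in siNC and 18.3 to 26.2 CPM in the knockdowns, with a range of 0.20 among its 3 log2 fold changes; reads shared with its near-identical relatives could not be separated. GCLM, a subunit of the enzyme that begins glutathione synthesis, fell in siFDPS and siSQLE and rose in siYY1 (-2.22, -1.08 and 0.98).

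Targets of YAP and TAZ, the effectors of the Hippo pathway, rose in 10 of 19 cases and fell in 5, and 8 were above siNC in all 9 libraries. These are 52.6%, 26.3% and 42.1%, against 20.8%, 22.8% and 7.78% of all genes tested. ANKRD1 had 2.66, 2.39 and 1.93 CPM in siNC and 7.56 to 13.5 CPM, median 9.70, in the knockdowns, a mean log2 fold change of 2.11 (SE 0.130, edgeR adjusted p = 2.9e-07). WWC1, which encodes the Hippo regulator KIBRA, had 43.2, 49 and 44.1 CPM in siNC and 138 to 251 CPM, median 153, and AMOTL1 46.5 to 53 CPM in siNC and 81.3 to 145 CPM. CTGF, a matricellular protein and a common readout of YAP, had a mean of 25.4 CPM in siNC and 62.7, 56.7 and 48.1 CPM in siFDPS, siSQLE and siYY1. AXL, a receptor tyrosine kinase of the list, fell by 0.88 on the log2 scale, and ASAP1 was below siNC in all 9 libraries.

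Of 37 extracellular matrix genes 12 rose and 15 fell (32.4% and 40.5%, against 20.8% and 22.8% of all genes tested). In all libraries 8 were above and 2 below siNC (21.6% and 5.41%, against 7.78% and 8.24%), and the list medians differed in sign, with -0.12 in siFDPS, 0.32 in siSQLE and -0.47 in siYY1. LAMA4, a laminin chain, had 12.6, 14.5 and 13.4 CPM in siNC and 26.6 to 51.9 CPM, median 36.0, in the knockdowns, a mean log2 fold change of 1.42 (SE 0.0861, edgeR adjusted p = 2.7e-07). COL13A1 and THBS2 were above siNC in all 9 libraries with very unequal changes, 0.31, 2.89 and 2.27 in COL13A1 and 0.49, 3.45 and 0.66 in THBS2. LAMA1, another laminin chain, rose by 2.16, 1.30 and 0.90.

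Inflammatory genes split. Of 19 NF-kB and inflammatory genes 7 rose and 5 fell (36.8% and 26.3%, against 20.8% and 22.8% of all genes tested). In all libraries 5 were above and 3 below siNC (26.3% and 15.8%, against 7.78% and 8.24%). IL1A, an alarm cytokine, had 49.6 to 59.4 CPM in siNC and 86.4 to 224 CPM, median 132, in the knockdowns, a mean log2 fold change of 1.38 (SE 0.0678, edgeR adjusted p = 6e-08). BIRC3, an inhibitor of apoptosis, had 62.6, 60.9 and 70.2 CPM in siNC and 18.8 to 31.3 CPM, median 23.1, and CSF2, the growth factor GM-CSF, 9.13 to 12.4 CPM in siNC and 2.49 to 6.72 CPM. CXCL1, a neutrophil attractant, was higher mainly in siSQLE, by 1.87 on the log2 scale against 0.56 in siFDPS and 0.51 in siYY1.

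Of 24 sterol genes 9 rose and 7 fell (37.5% and 29.2%, against 20.8% and 22.8% of all genes tested). PMVK, phosphomevalonate kinase, had 11.4, 11.7 and 10.6 CPM in siNC and 20.8 to 30.2 CPM, median 27.3, in the knockdowns, a mean log2 fold change of 1.21 (SE 0.0613, edgeR adjusted p = 7.5e-08). TM7SF2, a sterol reductase that shares its strand with an overlapping gene, had 13.3 to 15.9 CPM in siNC and 1.29 to 8.15 CPM in the knockdowns. CYP51A1 and NSDHL were above siNC in all 9 libraries, by means of 0.50 and 0.17.

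Of 22 immediate early genes 9 rose and 5 fell (40.9% and 22.7%, against 20.8% and 22.8% of all genes tested). JUNB had 19.6, 16 and 11.3 CPM in siNC and 2.60 to 10.7 CPM in the knockdowns. For MYC, the growth-promoting transcription factor, the siNC libraries disagreed. It had 52.1, 2.97 and 34.5 CPM in siNC libraries 1 to 3 and 3.23 to 5.95 CPM in the knockdowns, so the second siNC library lay below all of them, and the mean log2 fold change of -2.86 rests on siNC libraries 1 and 3. KLF6 had 27.9, 83.2 and 82.7 CPM in siNC and 93.7 to 154 CPM in the knockdowns, and its log2 fold change of 0.87 became 0.51 without siNC library 1. PSME3, a proteasome activator, had 206, 89.9 and 227 CPM in siNC and 94.9 to 335 CPM in the knockdowns, and its log2 fold change of 0.54 did not pass the test (edgeR adjusted p = 0.20). Libraries of one group that differ over 3-fold were found in at least 1 group for 5.89% of the 14556 tested genes with a mean of 50 counts or more. For the 2800 no-overlap genes with that mean the share was 2.04%. A group in which any library had no count was not judged, so both shares are lower bounds. TNFAIP6, a hyaluronan-binding protein, had log2 fold changes of 1.36, 0.43 and -3.00 and a mean of -0.40 that did not pass the test (edgeR adjusted p = 0.29).

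Among the KEGG pathways given in the deposited table with at least 30 tested genes, ABC transporters had the largest share of lower genes, with 14 of 40 below siNC in all 9 libraries and 0 above. The share was 35.0%, against 8.72% of the 6686 tested genes that have a pathway. These pathways were singled out after their values were seen and have no test. Their members are those labelled so in the deposited table, which include pseudogenes and other loci, such as ZNF721 among the ABC transporters. ABCC3, an exporter of organic anions, had a mean of 186 CPM in siNC and 54.3, 88.2 and 40.9 CPM in siFDPS, siSQLE and siYY1. ABCG2 and ABCB1, exporters linked to drug resistance, were at 14.1 and 11.4 CPM in siNC, and at 2.37 and 2.33 in siFDPS, 7.04 and 6.87 in siSQLE, and 4.33 and 7.33 in siYY1. ABCA7, a lipid transporter, went from 17.7 CPM to 2.26, 10.9 and 4.66 CPM in the same order. ABCG1, which exports cholesterol, had 3.73 CPM in siNC and 0.366, 1.08 and 0.286 CPM in the knockdowns.

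Aminoacyl-tRNA biosynthesis had the largest share of higher genes, with 12 of 46 above siNC in all 9 libraries (26.1%, against 8.88% of tested genes with a pathway) and 4 below. The 12 include the pseudogene QRSL1P3, at a mean of 0.0468 CPM in siNC. The alanine enzyme gene AARS had a mean of 174 CPM in siNC and 336, 207 and 388 CPM in siFDPS, siSQLE and siYY1, and HARS, the histidine enzyme, 90.2 CPM in siNC and 147, 142 and 166 CPM. GARS, KARS, SARS and YARS were also above siNC, by 0.64, 0.75, 0.64 and 0.48 on the log2 scale. Mitochondrial enzymes were found on both sides: TARS2, CARS2, FARS2 and EARS2 were above siNC, by 0.96, 0.68, 0.44 and 0.37, and SARS2, WARS2 and VARS2 below it, at -0.94, -0.54 and -0.33.

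In protein processing in the endoplasmic reticulum, 33 of 187 tested genes were above siNC in all 9 libraries and 7 below (17.6% and 3.74%, against 8.88% and 8.72% of tested genes with a pathway). The 33 include pseudogenes such as HSP90AA2P and PDIA3P1. GANAB, a glucosidase that trims new N-glycans, had a mean of 158 CPM in siNC and 362, 627 and 728 CPM in siFDPS, siSQLE and siYY1. RRBP1, a ribosome-binding protein of the rough endoplasmic reticulum, had 87.8 CPM in siNC and 170, 254 and 211 CPM. CKAP4, a protein that shapes its sheets, had 121 CPM in siNC and 272, 262 and 256 CPM, close to the same rise in each knockdown. TRAM1, a helper of translocation into the endoplasmic reticulum, was lower, from 688 CPM in siNC to 114, 536 and 392 CPM.

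The no-overlap genes were also looked at for promoter motifs. RefSeq promoters were found for 1160 of the higher, 1126 of the lower and 11750 of all tested genes. The YY1 motif AANATGGC on either strand was present in 10.1% of higher, 6.04% of lower and 9.45% of all promoters, and the E2F motif TTTNGCGC in 3.28%, 1.69% and 2.86%. The AP-1 motif TGANTCA was present in 4.14%, 5.95% and 5.10%, the ATF4 composite element TGATGNAA in 2.33%, 2.22% and 1.77%, the CLEAR core in 1.81%, 1.33% and 1.79%, and the sterol response element TCACNCCAC in 1.03%, 0.799% and 1.14%.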

How the data were processed

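The table the authors deposited holds raw counts (whole numbers, no normalization) of 206601 annotated transcripts for 12 libraries, 3 per group. The submitters' processing notes name Trimmomatic 0.36, STAR 2.5.3, featureCounts and Subread 1.5.1 and the build GRCh38. How molecular identifiers and strand were used, and how reads were assigned among transcripts, is not given in the sources used here, so counts were summed per gene. An ACTB transcript with 22515 counts in one library had 0 in another. Of the transcripts, 99.98% had the start and end of GENCODE release 29.

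Counts were tested with edgeR 4.0.16 (R 4.3.3): quasi-likelihood, TMM, filterByExpr, 12 libraries, 4 groups, the mean of the 3 knockdowns minus siNC, and Benjamini-Hochberg adjustment over all 20364 genes. The study's methods use DESeq2; version 1.42.0 was the alternative. The code was tested on simulated data. Each SE came from the fold change and its F statistic. Python 3.11.15, pandas 2.3.3 and matplotlib 3.10.9 were used.

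The genes and the 20 lists were chosen with earlier results of these data known. Named genes are the targets, the 12 widest gaps and 6 largest uniform changes in each direction (mean of 50 counts or more, no overlapping gene on the strand; gap on CPM + 0.1), up to 4 genes a list by fold change among those called, and genes the study discusses; further genes were named after their values were seen. The p-value of a named list gene comes from the contrast that called it and is no further test. No-overlap counts, gaps, motifs and pathways are descriptions. Samples with the same replicate number did not deviate together (correlations of -0.109 to 0.044). Same-strand overlapping genes and near-identical copies are uncertain. Some genes and 1 list that these rules name are not reported here.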

Additional observations from a re-analysis of the deposited data

How the results depend on the processing

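Calls of the mean of the 3 knockdowns against siNC fell from 4227 higher and 4643 lower to 1004 and 943 with 2 groups. With at least 2-fold as well they were 665 and 1482. Fits of each knockdown against siNC on its own 6 libraries gave 988 and 1104. That count combines 3 separate comparisons that share the siNC libraries and is not a test of their mean. The no-overlap genes fell from 1584 and 1677 to 220 and 312 with a margin of 1.5-fold, and the uniform genes were 40 and 21 at a range of 0.25 and 280 and 302 at a range of 1. DESeq2 called 4352 and 4859, of which 8753 were called by edgeR in the same direction. Upper-quartile normalization moved the median of all genes from -0.017 to -0.105 and the higher share of the calls from 47.7% to 36.8%, with 3319 higher and 5689 lower. Under the replicate block the calls were 3932 and 4344, and it turned no direction of a named gene; the numbers do not pair the samples. Leaving out 1 library gave 3608 to 4221 higher and 3977 to 4899 lower calls, 1578 to 1943 and 1769 to 2193 no-overlap genes.

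Of 2256 alternatives for named genes and list medians, 2247 kept direction and side of the threshold. The median of the NF-kB list, 0.03, turned to -0.05 with upper-quartile normalization, to -0.04 and -0.06 without siNC libraries 1 and 2, to -0.04 without siSQLE library 3 and to -0.02 without siYY1 library 1, and was 0.13 without siNC library 3, so no direction is given to it. FDPS passed at -0.18 with upper-quartile normalization and -0.11 without siSQLE library 2, PSME3 at 0.64 without siSQLE library 2, and RHOU failed at -0.84 without siNC library 1; the cause was not tested. With 3 libraries a group, small changes and genes of few counts could be missed, and without untransfected cells none of these settings bears on siNC itself.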
